A study of Mus musculus with 14 samples.

Results

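The 10 genes described here are Gdf3, 3 other TGF-beta superfamily ligands (Tgfb1, Inhba and Bmp4), 3 intracellular brakes of SMAD signalling (Smad6, Smad7 and Skil) and 3 Id genes (Id1, Id2 and Id3), followed in mouse erythroid progenitors that were or were not given erythropoietin (EPO). They were taken as every probe set that the array annotation assigns to a listed gene alone, which gave 17 probe sets of the 45037 tested.

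All cells came from the bone marrow of wild-type female C57BL/6 mice of 8 to 12 weeks and were expanded in culture, and no group carried a transgene or a deleted allele. E2 cells, called proerythroblasts in the labels, were depleted of Lin+ and Kit+ cells and selected for CD71 at day 3.5, whereas E1 cells, called CFUe-like, were depleted of Lin+ cells and selected for Kit and CD71 at day 3. These days are those of the labels, and the study's methods name day 3.5 for both stages. All cells spent 5.5 hours without cytokines and then 90 minutes either with 4 U/mL EPO or with carrier alone. The 14 arrays were 3 of E2 cells with EPO, 3 of E2 cells without EPO, 4 of E1 cells with EPO and 4 of E1 cells without EPO, each described as a biological replicate. The marrow was cultured before sorting, so these are ex vivo cells.

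Ligands of the TGF-beta superfamily bind paired serine/threonine kinase receptors, which phosphorylate SMAD transcription factors. The TGF-beta, activin and nodal branch uses Smad2 and Smad3, the BMP branch uses Smad1, Smad5 and Smad9, and both share Smad4. The pathway limits itself: its target genes include Smad6 and Smad7, inhibitory SMADs that block the receptors, and Skil (SnoN), a corepressor that binds SMAD complexes on DNA. Id1, Id2 and Id3, common BMP targets, encode helix-loop-helix proteins without a DNA-binding region that sequester E proteins, the partners of erythroid factors such as Tal1. In red cell formation TGF-beta is known to slow proliferation and promote maturation, and EPO acts through its own receptor, Jak2 and Stat5.

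Promoter sequence was at hand for 6 of the 10 genes in RefSeq (build GRCm38.p6): Tgfb1, Inhba, Bmp4, Smad6, Id2 and Id3. The 250 bases before the start are printed for Tgfb1, the 1 of these 6 genes with a probe set that changed with EPO, and for Id2 and Id3, the 2 Id genes with no probe set that did, so that the upstream windows can be set side by side. They are written 5′ to 3′ on the gene's strand, and capitals mark matches, on either strand, to any of 5 motifs: the STAT motif TTCNNNGAA, the SMAD box GTCTG, the BMP-SMAD motif GGCGCC, the GATA motif AGATAA and the E-box CAGCTG.
Tgfb1, chr7:25686752-25687001, plus strand: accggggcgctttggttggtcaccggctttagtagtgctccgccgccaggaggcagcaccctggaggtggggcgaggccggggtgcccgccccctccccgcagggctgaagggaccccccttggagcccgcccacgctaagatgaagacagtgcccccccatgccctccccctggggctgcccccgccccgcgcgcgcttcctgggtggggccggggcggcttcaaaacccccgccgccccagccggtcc
Id2, chr12:25096093-25096342, minus strand: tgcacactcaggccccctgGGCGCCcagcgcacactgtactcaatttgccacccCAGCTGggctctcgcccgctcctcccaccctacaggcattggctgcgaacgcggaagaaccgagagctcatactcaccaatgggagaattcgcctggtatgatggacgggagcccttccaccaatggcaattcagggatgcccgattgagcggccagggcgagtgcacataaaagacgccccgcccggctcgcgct
Id3, chr4:136143572-136143821, plus strand: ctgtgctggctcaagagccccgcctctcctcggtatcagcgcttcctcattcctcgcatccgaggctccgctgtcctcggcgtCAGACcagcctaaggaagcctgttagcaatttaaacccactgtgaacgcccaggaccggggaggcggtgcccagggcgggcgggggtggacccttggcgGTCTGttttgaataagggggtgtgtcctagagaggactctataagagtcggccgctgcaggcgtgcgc

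The Id3 window held 2 SMAD boxes, 167 and 68 bases before the start, and the Id2 window held 1 BMP-SMAD motif, 231 bases before it, and 1 E-box, 196 bases before it. The windows of Tgfb1, Smad6, Inhba and Bmp4 held none of the 5 motifs. Among 32841 windows of the same length, 42.2% held the SMAD box, 9.59% the BMP-SMAD motif, 13% the E-box, 7.02% the STAT motif and 9.99% the GATA motif. These are matches of letters in a short window.

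The deposited values are log2 signals from which a constant was subtracted for each probe set, so that they show how far an array lies above or below a common middle and not how strongly a gene is transcribed. The base is not stated in the sources used here and was taken to be 2, which GC-RMA gives, so a difference of 1 between arrays is read as a 2-fold difference. The median within-group SD of a probe set was 0.0343 in E2 cells with EPO, 0.0317 in E2 cells without EPO, 0.0729 in E1 cells with EPO and 0.0934 in E1 cells without EPO, so that the spread between replicates was larger in E1. In these bulk samples, fewer cells of a type and less RNA per cell cannot be told apart. A probe set is said to have changed where limma's moderated test gave a Benjamini-Hochberg adjusted p under 0.05 over all 45037 probe sets. No marker of 7 cell types (erythroid, macrophage, neutrophil, mast cell, megakaryocyte, B and T or NK cell lists) passed limma's test with EPO at either stage. At an unadjusted p under 0.05, of 47 markers 2 were higher and 6 lower in E2 and 0 higher and 3 lower in E1. The stages did differ in several of these lists, as given with the stage comparison.

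Gdf3, Tgfb1, Smad7, Skil and Id1 rose with EPO in E2 cells, each by 1 probe set, with changes of 1.87- to 2.68-fold, and Gdf3 rose in E1 cells by both of its probe sets, 4.76- and 8.84-fold. In E2 cells 5 of the 17 probe sets were higher with EPO and none lower, where 2.54% of all probe sets were higher and 2.08% lower. At an unadjusted p under 0.05 the count was 8 higher and 0 lower. No share over all probe sets or genes was taken at an unadjusted p, so the shares given here and elsewhere are no measure for unadjusted counts. The count of 5 was 1 with any no-EPO array left out, 2 without EPO replicate 2 and 4 without EPO replicate 1 or 3. In E1 cells 2 of the 17 were higher and none lower, where 0.804% of all probe sets were higher and 0.36% lower, and at an unadjusted p under 0.05 the count was 3 higher and 0 lower. The count of 2 was 0 without EPO replicate 3 or no-EPO replicate 3 and 1 without no-EPO replicate 1, and it was 1 with the replicate block. The median change over the 17 probe sets was 0.17 in E2 and 0.10 in E1 on the log2 scale, beside -0.0049 and -0.0047 over all probe sets. All 3 EPO-treated E2 arrays lay above all 3 untreated ones for 9 of the 17 probe sets, which 9.42% of all probe sets did, and the same held between the E1 groups for 2, which 3.28% did.

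**Figure D1:**
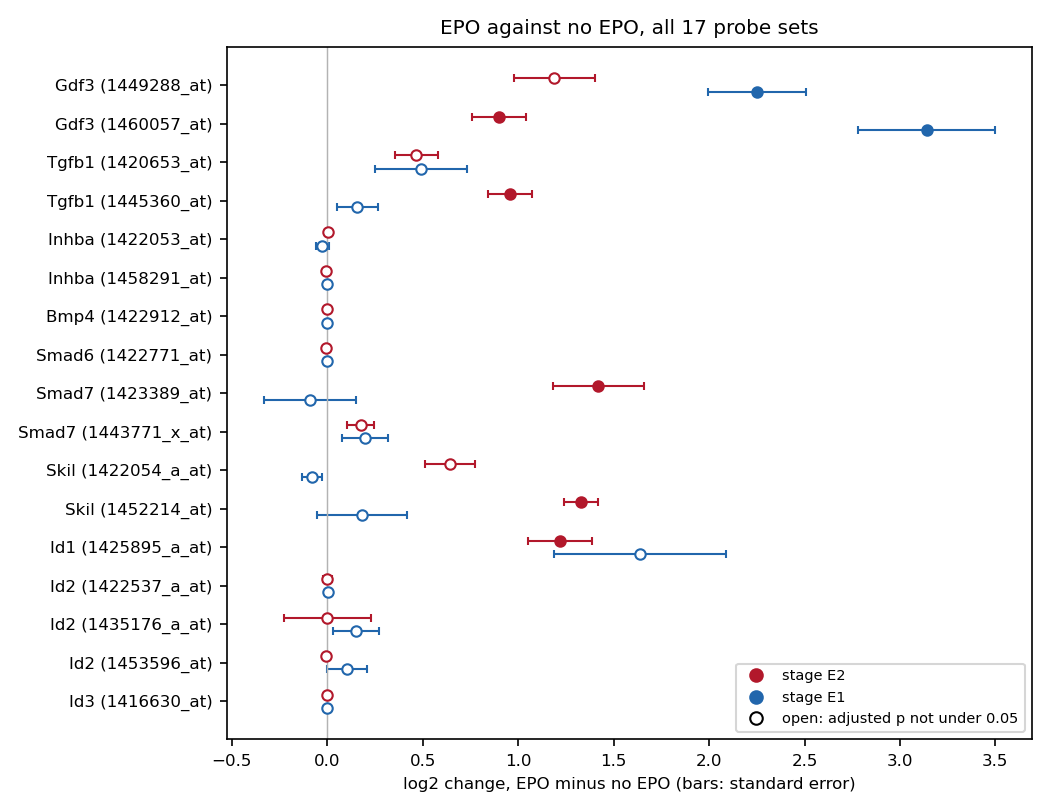
Change with EPO (log2, EPO minus no EPO, horizontal axis) of all 17 probe sets, E2 in red above E1 in blue, with bars for the standard error (SE) and open points where the adjusted p was not under 0.05. The 5 filled red points lie between 0.90 and 1.42, and the 2 filled blue points are the Gdf3 probe sets at 2.25 and 3.14.

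Gdf3 (growth differentiation factor 3), a secreted ligand best known from embryonic stem cells and the early embryo, where it acts through activin receptors with a co-receptor of the Nodal pathway and can also restrain BMPs, was the member that moved most in E1 cells. In E2 cells its called probe set had the smallest change of the 5 that rose. That probe set, 1460057_at, read 0.86, 1.14 and 0.60 in E2 cells with EPO, against -0.03, -0.04 and -0.03 in E2 cells without EPO. In E1 cells it read 2.04, 3.14, 3.47 and 3.81 with EPO, against 0.01, -0.07, -0.03 and -0.02 without EPO. Every EPO-treated array stood above all untreated arrays, those of E1 highest. The untreated arrays hardly varied (SD 0.00253 in E2 and 0.0304 in E1), and since centred values do not show whether they lay above background, the fold changes of this probe set hold for the deposited values and not necessarily for the transcript.

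The change was 0.90 in E2 (SE 0.14, 1.87-fold, n = 3 each, limma adjusted p = 0.0414) and 3.14 in E1 (SE 0.36, 8.84-fold, n = 4 each, limma adjusted p = 0.0135). A fit that took replicate numbers as blocks put the adjusted p of the E1 change at 0.107. In E1 the adjusted p was 0.0516 without no-EPO replicate 1, 0.0541 without no-EPO replicate 3 and 0.0573 without EPO replicate 3. In E2 it lay between 0.122 and 0.142 without EPO replicate 1 or without any no-EPO replicate, and it was 0.0504 after quantile normalization and 0.343 when all 14 arrays shared an estimate of the spread. The study itself named Gdf3, and also Lyl1 and Erbin described below, among EPO-responsive genes of E1 cells, so their E1 changes are not independent evidence. It also assayed Gdf3 and Lyl1 by quantitative RT-PCR, which was not re-examined here.

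The other Gdf3 probe set, 1449288_at, read 0.61, 0.12 and 0.01 in E2 cells with EPO, against -1.15, -0.99 and -0.69 in E2 cells without EPO. The E1 arrays read 2.30, 3.16, 2.73 and 3.01 with EPO, against -0.01, 0.66, 0.59 and 0.95 without EPO. The EPO-treated and untreated arrays did not overlap at either stage. The difference was 1.19 in E2 (SE 0.21, limma adjusted p = 0.0551, not passed) and 2.25 in E1 (SE 0.26, 4.76-fold, limma adjusted p = 0.0135). The E1 value passed with the replicate block (limma adjusted p = 0.0337), and it had adjusted p values of 0.0533 without no-EPO replicate 3 and 0.0573 without EPO replicate 3. Among all 45037 probe sets, ordered by the size of the E1 increase, the Gdf3 probe sets were at ranks 22 and 66, and their values correlated at r = 0.89 over the 14 arrays.

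**Figure D2:**
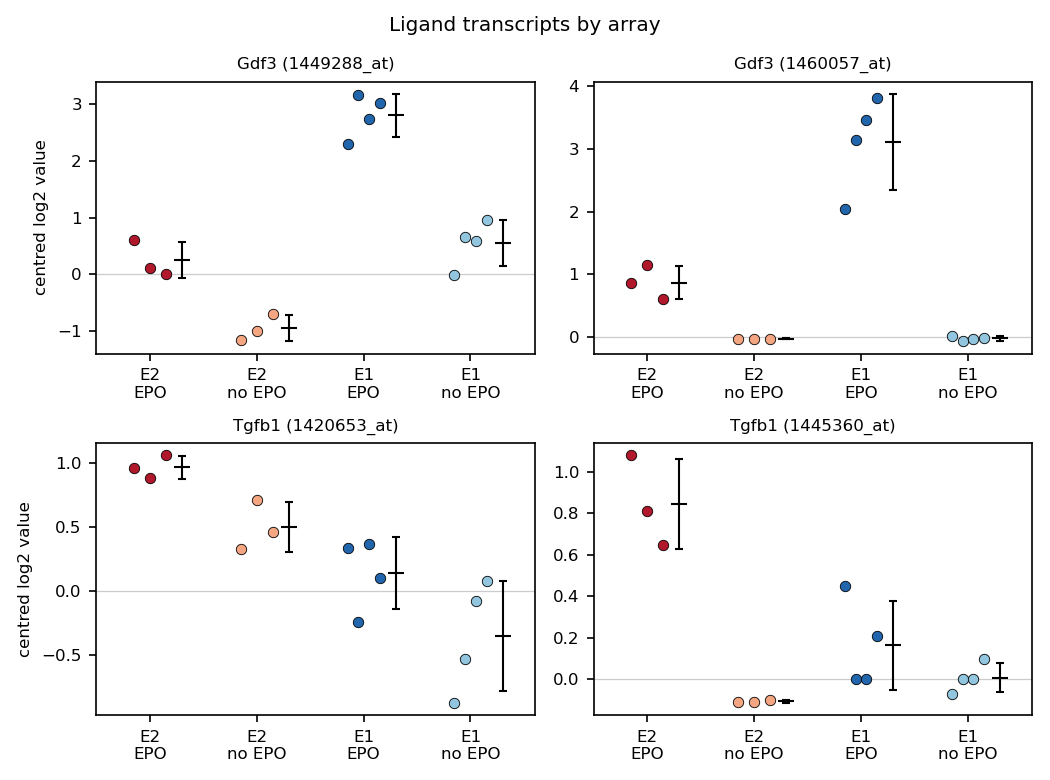
Centred log2 value (vertical axis) of the 2 Gdf3 and 2 Tgfb1 probe sets in each of the 14 arrays, by group, with a bar for the mean ± SD. The EPO-treated E1 arrays are highest for Gdf3 (2.04 to 3.81 for 1460057_at), and the EPO-treated E2 arrays are highest for Tgfb1 (0.88 to 1.06 for 1420653_at).

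Tgfb1 encodes TGF-beta 1, the ligand of the family that blood cells chiefly make, secreted in a latent form. Its probe set 1445360_at read 1.08, 0.81 and 0.65 in E2 cells with EPO, against -0.11, -0.11 and -0.10 in E2 cells without EPO. Its values in E1 cells were 0.45, 0.00, -0.00 and 0.21 with EPO, against -0.07, 0.00, -0.00 and 0.10 without EPO. The untreated E2 arrays hardly varied (SD 0.00578), and whether they lay above background is not known. The fold change of this probe set thus holds for the deposited values and not necessarily for the transcript. It rose in E2 by 0.95 (SE 0.11, 1.94-fold, limma adjusted p = 0.0219), while the E1 difference of 0.16 (SE 0.11) had a limma adjusted p of 0.944 and its groups overlapped. The E2 adjusted p lay between 0.0704 and 0.0921 without EPO replicate 2 or without any no-EPO replicate.

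The second Tgfb1 probe set, 1420653_at, read 0.96, 0.88 and 1.06 in E2 cells with EPO, against 0.33, 0.71 and 0.46 in E2 cells without EPO. In E1 cells it read 0.34, -0.24, 0.37 and 0.10 with EPO, against -0.87, -0.53, -0.08 and 0.08 without EPO. The differences were of like size, 0.47 in E2 (SE 0.11, limma adjusted p = 0.114) and 0.49 in E1 (SE 0.24, limma adjusted p = 0.708), and neither passed. The 2 probe sets correlated at r = 0.63 over the 14 arrays.

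Inhba, which encodes the beta A subunit of activin and inhibin, and Bmp4, a BMP ligand used in stress erythropoiesis of the spleen, hardly moved in any array. The values of Inhba spanned 0.153 (1422053_at) and 0.0644 (1458291_at) over the 14 arrays and those of Bmp4 0.043, where the median span of a probe set was 0.503. Spans under 0.2 were found in 6 of the 17 probe sets, which took in every probe set of 4 genes (Inhba, Bmp4, Smad6 and Id3) and 1 of Id2, and in 35.4% of all probe sets. The centred values do not separate an absent transcript from a constant transcript, so nothing can be said of the level of these genes.

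Of the brakes, Skil and Smad7 rose with EPO in E2 cells. Skil probe set 1452214_at read 0.33, 0.16 and 0.34 in E2 cells with EPO, against -1.16, -1.08 and -0.90 in E2 cells without EPO. The E1 arrays read -0.04, 0.77, 0.07 and -0.03 with EPO, against 0.03, 0.46, -0.26 and -0.19 without EPO. The untreated E2 arrays were the lowest of all and the other 3 groups overlapped.

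Skil 1452214_at rose in E2 by 1.33 (SE 0.09, 2.51-fold, limma adjusted p = 0.00487), and this call stood with each of the 6 E2 arrays left out, with adjusted p values between 0.0134 and 0.0316. In E1 the difference was 0.18 (SE 0.24, 95% confidence interval -0.38 to 0.75, limma adjusted p = 1).

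The other Skil probe set, 1422054_a_at, read 0.57, 0.98 and 0.67 in E2 cells with EPO, against 0.12, -0.05 and 0.22 in E2 cells without EPO. Its values in E1 cells were -0.27, -0.06, -0.10 and -0.07 with EPO, against -0.04, -0.01, -0.11 and -0.03 without EPO. Here the EPO-treated E2 arrays stood above all others. The difference was 0.64 in E2 (SE 0.13, limma adjusted p = 0.0791) and -0.08 in E1 (SE 0.05, limma adjusted p = 0.942), and neither passed. The 2 Skil probe sets followed each other only loosely over the 14 arrays (r = 0.18), and differed in which E2 group stood apart from E1.

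Smad7 probe set 1423389_at read 0.90, 1.58 and 1.75 in E2 cells with EPO, against 0.00, -0.02 and -0.01 in E2 cells without EPO. In E1 cells it read 0.01, -0.01, 0.51 and -0.00 with EPO, against 0.00, -0.00, -0.02 and 0.89 without EPO. Away from the EPO-treated E2 cells it was thus raised in 1 array of each E1 group and near 0 in the rest. The untreated E2 arrays hardly varied here either (SD 0.0107), and whether they lay above background is not known. It rose in E2 by 1.42 (SE 0.24, 2.68-fold, limma adjusted p = 0.0478), and in E1 the difference was -0.09 (SE 0.24, 95% confidence interval -0.67 to 0.49, limma adjusted p = 1).

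The Smad7 call in E2 was close to the threshold. Its adjusted p lay between 0.107 and 0.157 without EPO replicate 2 or 3 or any no-EPO replicate, and was 0.0522 with arrays centred on their medians and 0.0623 with array weights. The second Smad7 probe set, 1443771_x_at, whose suffix marks probes that can match other transcripts, read 0.04, -0.14 and -0.17 in E2 cells with EPO, against -0.30, -0.31 and -0.18 in E2 cells without EPO. Its E1 values were 0.48, 0.29, 0.08 and -0.09 with EPO, against 0.06, -0.03, 0.01 and -0.06 without EPO. It did not pass in E2 (0.17, SE 0.07, limma adjusted p = 0.336), nor did it in E1 (0.20, SE 0.12, limma adjusted p = 0.878), and the 2 probe sets were unlike over the arrays (r = -0.20). Smad6, the inhibitory SMAD of the BMP branch, spanned 0.047 over the 14 arrays.

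**Figure D3:**
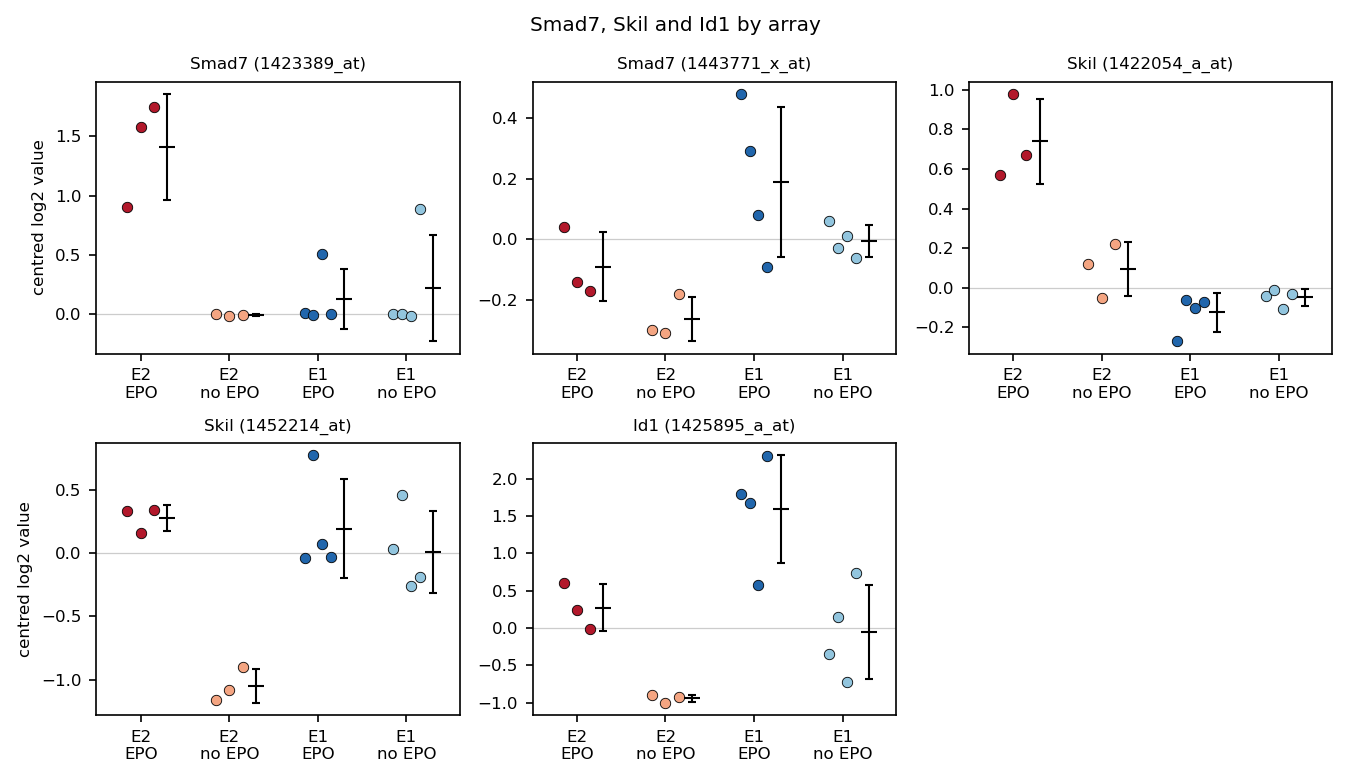
Centred log2 value (vertical axis) of the Smad7, Skil and Id1 probe sets in each of the 14 arrays, by group, with a bar for the mean ± SD. Smad7 1423389_at and Skil 1422054_a_at are highest in EPO-treated E2 arrays, while Skil 1452214_at and Id1 are lowest in untreated E2 arrays (-1.16 to -0.90 and -1.0 to -0.90).

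Among the Id genes, Id1 rose with EPO in E2 cells. It read 0.60, 0.24 and -0.02 in E2 cells with EPO, against -0.90, -1.0 and -0.93 in E2 cells without EPO. The E1 arrays read 1.79, 1.68, 0.58 and 2.30 with EPO, against -0.35, 0.15, -0.72 and 0.73 without EPO. The E2 groups did not overlap, and in E1 the lowest EPO-treated array lay below the highest untreated array. Between E1 arrays of the same replicate number, EPO minus no EPO was 2.15, 1.53, 1.30 and 1.57, higher with EPO in each of the 4 pairs.

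The Id1 change was 1.22 in E2 (SE 0.17, 2.33-fold, limma adjusted p = 0.0292). In E1 the difference was the larger of the 2, 1.64 (SE 0.45, 95% confidence interval 0.57 to 2.71), but it did not pass (limma adjusted p = 0.23, and 0.0902 with the replicate block, where the SE was 0.16). The within-group SD of Id1 was 0.311 and 0.0563 in E2 with and without EPO, and 0.724 and 0.63 in E1 with and without EPO. When all 14 arrays shared an estimate of the spread, the adjusted p was 0.272 in E2 and 0.0339 in E1. In E2 it lay between 0.0906 and 0.114 without EPO replicate 2 or without any no-EPO replicate.

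Id2 had 3 probe sets, and none passed the EPO test at either stage. Probe set 1435176_a_at read -0.24, 0.18 and -0.03 in E2 cells with EPO, against 0.40, -0.23 and -0.26 in E2 cells without EPO, and the difference was 0.00 (SE 0.23, 95% confidence interval -0.59 to 0.59, limma adjusted p = 0.999). In E1 the difference was 0.15 (SE 0.12, limma adjusted p = 1). Probe set 1453596_at was near 0 in every array except EPO replicate 2 of E1 (0.45), and 1422537_a_at spanned 0.0667. Id3 spanned 0.0378, the smallest span of the 17.

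The difference of the EPO changes between stages (E2 minus E1) was tested as an interaction on all 14 arrays, and none of the 17 probe sets passed, where 0.18% of all probe sets passed as higher and 0.235% as lower. At an unadjusted p under 0.05, 4 were higher and 2 lower. The values were 0.72 (SE 0.13, limma adjusted p = 0.0505) for Skil 1422054_a_at, 1.15 (SE 0.30, limma adjusted p = 0.202) for Skil 1452214_at, 1.51 (SE 0.36, limma adjusted p = 0.146) for Smad7 1423389_at and 0.80 (SE 0.16, limma adjusted p = 0.0809) for Tgfb1 1445360_at. For Gdf3 they were -2.24 (SE 0.45, limma adjusted p = 0.076) for 1460057_at and -1.06 (SE 0.36, limma adjusted p = 0.422) for 1449288_at, the second of which was 0.92 after quantile normalization over the 14 arrays. For Id1 it was -0.42 (95% confidence interval -1.66 to 0.83, limma adjusted p = 1), but 1.51 after quantile normalization and 0.35 with array weights, so that its direction is not settled. A probe set that changed at a single stage is therefore not shown to respond differently between stages.

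The pathway was followed in 9 lists of 123 genes, members included, of which 114 were measured, each by the probe set with the largest SD over the 14 arrays. Known target genes of TGF-beta were the list with most EPO calls: in E2 cells 7 of 13 rose and none fell, with a list median of 0.72, where 3.19% of all genes rose and 2.42% fell and the median over all genes was -0.01. In E1 cells none of the 13 passed limma's test (3 higher and 0 lower at an unadjusted p under 0.05), where 1.13% of all genes rose and 0.396% fell, and the list median was 0.17. The E2 count was 5 or 6 with any E2 array left out. Smad7 and Skil, both members, belong to this list and to that of the brakes. The lists were chosen with earlier results of these data known, so these counts are not independent of those results.

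Klf10, a repressor induced early by TGF-beta, read 2.29, 2.32 and 2.51 in E2 cells with EPO, against 0.20, 0.20 and 0.34 in E2 cells without EPO. Its values in E1 cells were -0.33, 0.65, -0.20 and -0.45 with EPO, against -0.25, -0.48, -0.71 and -0.58 without EPO. It rose in E2 by 2.13 (SE 0.07, limma adjusted p = 0.00135), and its difference in E1 was 0.42 (SE 0.25, limma adjusted p = 0.859). The interaction was 1.70 (SE 0.31, limma adjusted p = 0.048), but its adjusted p was 0.156 with the replicate block and was over 0.05 in 13 of the 14 fits that left out an array, at up to 0.134.

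Junb, an AP-1 subunit, rose in E2 by 1.42 (SE 0.07, limma adjusted p = 0.00279), Bhlhe40, a repressor of the helix-loop-helix class, by 1.52 (SE 0.11, limma adjusted p = 0.00653), and Cdkn1a, the cyclin-dependent kinase inhibitor p21, by 0.95 (SE 0.06, limma adjusted p = 0.00478). These 3 calls and those of Klf10 and Skil stood with each E2 array left out. Cdkn2b, which encodes the inhibitor p15, rose by 0.72 (SE 0.10, limma adjusted p = 0.0311), with adjusted p values up to 0.104 when 1 array was left out (EPO replicate 1, 2 or 3, or no-EPO replicate 1 or 2). In E1 the differences of Junb, Bhlhe40 and Cdkn1a were 1.10, 0.88 and 1.23, with limma adjusted p values of 0.167, 0.164 and 0.123, and for all 3 the E1 groups did not overlap. A second Cdkn1a probe set, 1421679_a_at, had differences of 0.39 in E2 and 1.97 in E1 (limma adjusted p = 0.344 and 0.0718).

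**Figure D4:**
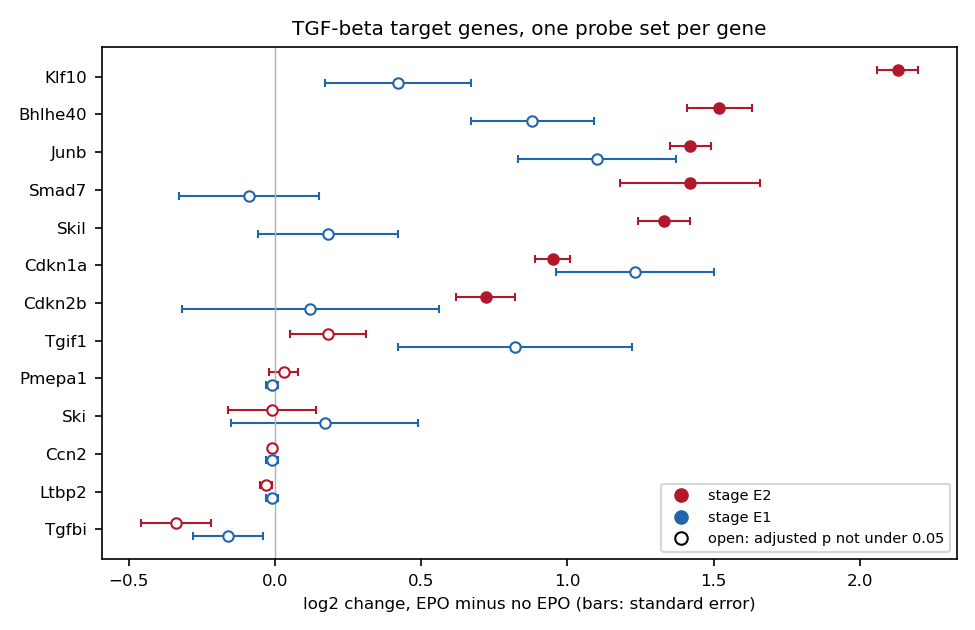
Change with EPO (log2, EPO minus no EPO, horizontal axis) of the 13 measured TGF-beta target genes, E2 in red above E1 in blue, with bars for the standard error and open points where the adjusted p was not under 0.05. In E2, 7 genes are filled, from Cdkn2b at 0.72 to Klf10 at 2.13, and no gene is filled in E1.

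In the BMP target list 3 of 13 genes rose in E2 and none fell, where 3.19% of all genes rose and 2.42% fell. They were Id1, Smad7 and Gata2, a progenitor GATA factor (0.58, SE 0.09, limma adjusted p = 0.039). A second Gata2 probe set, 1428816_a_at, did not pass in E2 (0.33, SE 0.07, limma adjusted p = 0.0943). None of the 13 passed in E1. At an unadjusted p under 0.05 the counts were 3 higher and 1 lower in E2 and 1 higher and 1 lower in E1. The list medians were 0.00 in E2 and -0.00 in E1. With an E2 array left out, between 0 and 2 of the 3 passed. Another list held 6 helix-loop-helix factors, among them the E protein Tcf4. In it Lyl1, a relative of Tal1, rose in E1 by 1.24 (SE 0.09, limma adjusted p = 0.00325, and 0.042 with the replicate block) and in E2 by 0.49 (SE 0.07, limma adjusted p = 0.029). Tal1, a master factor of the erythroid line, rose in E2 by 0.91 (SE 0.10, limma adjusted p = 0.0166). Between 0 and 2 of these E2 calls passed with an E2 array left out.

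Lyl1 read 0.38, 0.33 and 0.46 in E2 cells with EPO, against -0.20, 0.01 and -0.12 in E2 cells without EPO. In E1 cells it read -0.22, -0.27, -0.01 and -0.23 with EPO, against -1.33, -1.45, -1.27 and -1.61 without EPO. The groups did not overlap at either stage, and its interaction was -0.74 (SE 0.12, limma adjusted p = 0.0294, and 0.0847 with the replicate block), with adjusted p values over 0.05 in 7 of the 14 fits that left out an array, at up to 0.0847.

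The other lists held few calls, to be set beside shares over all genes of 3.19% higher and 2.42% lower in E2 and 1.13% higher and 0.396% lower in E1. Of 15 intracellular brakes, 2 rose in E2 (Smad7 and Skil) and 1 fell, Erbin, a scaffold that can hold SMADs in the cytoplasm, by 1.84 on the log2 scale (SE 0.23, limma adjusted p = 0.0229). Erbin also fell in E1, by 1.93 (SE 0.29, limma adjusted p = 0.0349, and 0.0516 with the replicate block), and its adjusted p was as high as 0.107 in E1 and 0.0947 in E2 with an array left out. Of its other 3 probe sets, 1439080_at alone passed in E1 (-1.35, limma adjusted p = 0.0199). None of them passed in E2 (-0.55 for 1439080_at, -0.43 for 1439638_at and -0.01 for 1428011_a_at). At an unadjusted p under 0.05, 2 brakes were higher and 4 lower in E2, and 0 higher and 3 lower in E1. The brake Bambi was lower with EPO by 1.42 in E2 but did not pass (SE 0.26, limma adjusted p = 0.0586, and 0.0443 with the replicate block). In E1 it was lower by 0.70 (SE 0.26, limma adjusted p = 0.435). Its EPO-treated and untreated arrays did not overlap at either stage. Of 6 SMAD transducers, Smad2 rose in E2 (0.69, SE 0.07, limma adjusted p = 0.0167), with an E1 difference of 0.35 (SE 0.39, limma adjusted p = 1). A second Smad2 probe set, 1420634_a_at, did not pass in E2 (0.36, SE 0.07, limma adjusted p = 0.0593). Smad3 was lower with EPO by 1.33 in E1, without overlap of the groups, but did not pass (SE 0.23, limma adjusted p = 0.0582). Its E2 difference was -0.40 (SE 0.18, limma adjusted p = 0.401). Of 19 extracellular antagonists and latency genes, Nrros, which holds latent TGF-beta 1 on myeloid cells, rose in E2 (1.29, SE 0.13, limma adjusted p = 0.0137), with an E1 difference of 1.33 (SE 0.36, limma adjusted p = 0.213). The Smad2 and Nrros calls were lost with 4 of the 6 E2 arrays left out in turn, at adjusted p values up to 0.0778 and 0.0665.

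None of 19 receptors and co-receptors and none of 7 SMAD cofactors passed limma's EPO test at either stage. At an unadjusted p under 0.05, the receptors held 0 in E2 and 1 higher in E1, and the cofactors 2 higher and 1 lower in E2 and 1 higher in E1. Of 27 ligands, only Gdf3 was called by its widest-ranging probe set, in E1, and none was called so in E2, where averaging the probe sets of each gene called 2 ligands. Of the cofactors, Crebbp, an acetyltransferase that SMADs recruit, had an interaction of -2.43 (SE 0.44, limma adjusted p = 0.0465), with an adjusted p of 0.151 with the replicate block and values over 0.05 in 12 of the 14 fits that left out an array, at up to 0.125.

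Between the stages, Gdf3 was lower and Tgfb1 higher in E2 than in E1 cells, with both probe sets of each in EPO-treated cells and with 1 of each in untreated cells. With EPO, 4 of the 17 probe sets were higher in E2 and 3 lower, where 10.3% and 12% of all probe sets were, and without EPO 1 was higher and 2 lower, where 10.1% and 10.8% were. The median over the members was -0.02 with EPO and -0.03 without, and that over all probe sets -0.027 in both. All E2 arrays lay above all E1 arrays for 4 probe sets and below them for 7 with EPO, as did 12.4% and 47.1% of all probe sets, and for 1 and 8 without EPO, as did 13.1% and 38%.

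With EPO, Gdf3 was lower in E2, with log2 differences of -2.55 (1449288_at, SE 0.26, limma adjusted p = 2.55e-05) and -2.25 (1460057_at, SE 0.32, limma adjusted p = 0.000333). Without EPO, 1449288_at was lower (-1.49, SE 0.26, limma adjusted p = 0.00141), whereas 1460057_at differed by -0.01 (SE 0.32, limma adjusted p = 0.99), its untreated arrays lying close together at both stages. Tgfb1 1420653_at was higher in E2 by 0.82 with EPO (SE 0.22, limma adjusted p = 0.018) and by 0.85 without (SE 0.22, limma adjusted p = 0.0165). In the EPO-treated arrays its adjusted p was 0.0545 when E2 replicate 1 was left out and 0.0685 when E2 replicate 3 was, and in the untreated arrays it was 0.0775 when E2 replicate 2 was. Tgfb1 1445360_at was higher in E2 with EPO (0.68, SE 0.12, limma adjusted p = 0.00114) and differed by -0.12 without (SE 0.12, limma adjusted p = 0.445). Its untreated E2 arrays all lay below the untreated E1 arrays, as did those of 38% of all probe sets.

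Smad7 1423389_at was higher in E2 with EPO (1.28, SE 0.25, limma adjusted p = 0.0033) and differed by -0.23 without (SE 0.25, limma adjusted p = 0.497). Skil 1422054_a_at was higher with EPO (0.86, SE 0.09, limma adjusted p = 4.59e-05), and Skil 1452214_at was lower without EPO (-1.06, SE 0.21, limma adjusted p = 0.00364). Id1 was lower in E2 with EPO (-1.31, SE 0.40, limma adjusted p = 0.0366), although the highest E2 array, at 0.60, lay above the lowest E1 array, at 0.58, and its adjusted p was between 0.0547 and 0.134 without E2 replicate 1, 2 or 3 or E1 replicate 1, 2 or 4. Without EPO the Id1 difference was -0.89 (SE 0.40, limma adjusted p = 0.139).

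**Figure D5:**
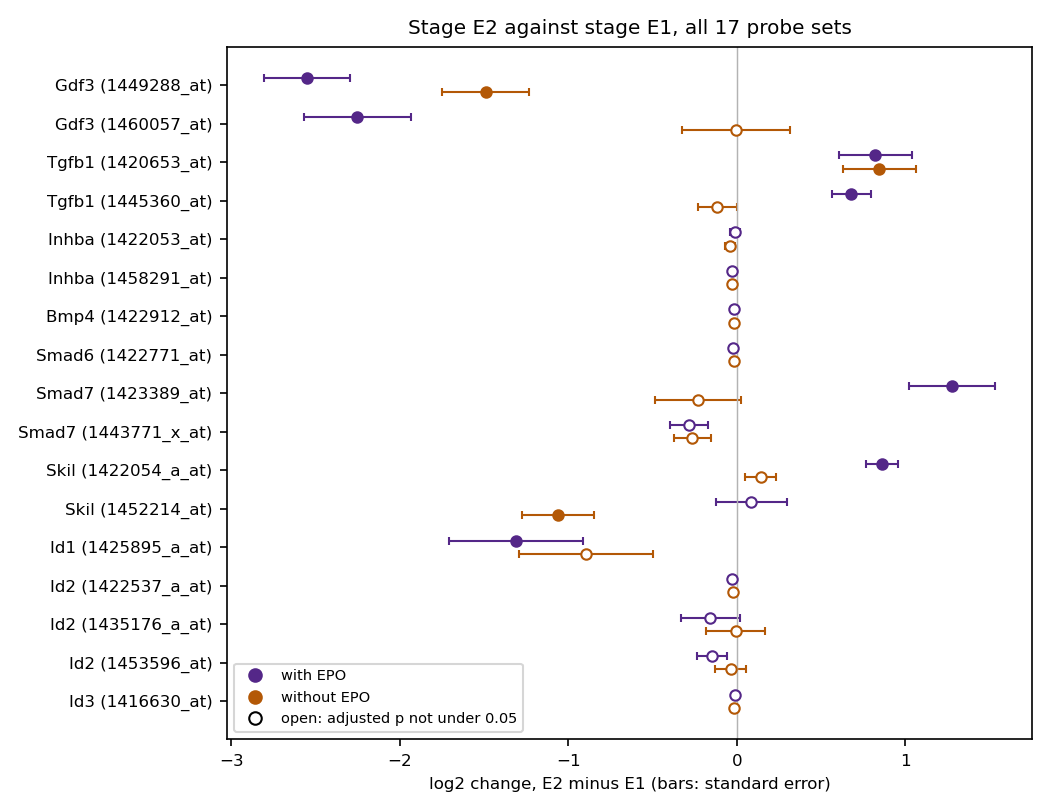
Difference between stages (log2, E2 minus E1, horizontal axis) of all 17 probe sets, with EPO in purple above without EPO in orange, with bars for the standard error and open points where the adjusted p was not under 0.05. Gdf3 lies to the left (down to -2.55), Tgfb1 1420653_at lies at 0.82 and 0.85, and Smad7 1423389_at and Skil 1422054_a_at are filled on the right with EPO alone.

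Other genes of the pathway also differed between the stages without EPO, a comparison in which 13.4% of all genes were higher in E2 and 13.8% lower. Cdkn1a was higher in E2 by 3.48 (SE 0.23, limma adjusted p = 1.47e-06) and Klf10 by 0.75 (SE 0.22, limma adjusted p = 0.0316), while Tgif1, a SMAD corepressor, was lower (-1.53, SE 0.35, limma adjusted p = 0.00849). Of the transducers, Smad4 (-2.12, SE 0.18, limma adjusted p = 6.71e-06) and Smad3 (-1.56, SE 0.23, limma adjusted p = 0.000442) were lower, and of the receptors, Bmpr2, a type II BMP receptor (-1.59, SE 0.14, limma adjusted p = 9.09e-06), and Bmpr1a, a type I receptor (-0.08, SE 0.02, limma adjusted p = 0.0383). Bmpr1a spanned only 0.164 over the 14 arrays, so its difference is small in size, and its limma adjusted p was 0.0646 with the replicate block. Gata2 (-2.55) and the E protein Tcf4 (-2.39) were lower, whereas Lyl1 was higher by 1.31. Of the latency genes, Nrros (-2.06) and Ltbp1, which tethers latent TGF-beta to the matrix (-1.91), were lower. Of the 15 brakes, 2 were higher, a share near that over all genes, among them Ppm1a, a SMAD phosphatase, at 1.36. Another 5 were lower, among them Trim33, a ubiquitin ligase for Smad4, at -1.17.

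These stage differences stood beside differences in markers of other cells, whose part in them was not tested. Without EPO, 7 of 9 neutrophil markers were lower in E2, with a list median of -7.28, and so were 3 of 5 mast cell markers, whereas 5 of 5 megakaryocyte markers (median 2.04) and 6 of 8 erythroid markers (median 0.84) were higher and Kit, which was used in the sort, was lower (-3.98), beside the shares of 13.4% higher and 13.8% lower over all genes. The mean centred value of the neutrophil list was -0.06 to -0.02 in E2 cells with EPO and -0.05 to -0.04 without, against 5.72 to 5.98 in E1 cells with EPO and 5.80 to 6.15 without. That of the megakaryocyte list was 1.41 to 1.52 in E2 cells with EPO and 1.5 to 1.57 without, against -1.22 to -0.74 in E1 cells with EPO and -1.0 to -0.39 without. That of the mast cell list was -0.08 to 0.02 in E2 cells with EPO and -0.13 to -0.05 without, against 1.65 to 2.64 in E1 cells with EPO and 1.99 to 2.33 without. Centred values have no true zero, so they do not show which markers are absent. For the macrophage list 2 of 10 markers were lower in E2, near the share over all genes, and none of 4 B cell and 6 T and NK cell markers passed. Stage and sort, and the day of culture where it differed, cannot be told apart.

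The genes whose representative probe set followed a member most closely over the 14 arrays were Akap1 (r = 0.981), Ccdc86 (0.978) and Larp1 (0.976) for Gdf3, and Pias4 (0.959), Dhrs13 (0.956) and Arf2 (0.942) for Tgfb1. For Smad7 they were Nlrp6 (0.901), Ccl27a (0.888) and Wsb2 (0.871), for Skil Tmem50b (0.934), Parp9 (0.924) and Nsun4 (0.905), and for Id1 Phb2 (0.908), Jmjd6 (0.905) and Ccdc115 (0.903). These Pearson correlations are descriptions over 14 arrays that share 4 groups, and they are the 3 highest for each member among 18193 genes.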

How the data were processed

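Affymetrix mouse arrays of 14 sorted cell samples were used. Per the labels and the methods, the authors processed the scans with GC-RMA in GeneSpring, and the deposited values are log2 signals centred for each probe set. The log base and the constant subtracted are not given in the sources used here. Base 2 was taken because GC-RMA gives it, and in 75.1% of probe sets 2 values lay at equal distances above and below 0, as a median over an even number of arrays gives. That median was not taken over these 14 arrays alone. The neutrophil list averaged 5.72 to 5.98 on E1 arrays with EPO and 5.80 to 6.15 without. A median over the 14, most of them E1, would put these near 0. How near 0 an array lies thus also depends on a middle that is not known. Array medians lay between -0.0229 and 0.0314. Levels of different genes cannot be compared, arrays carry no read depth, and precision is set by how many arrays each group has and by the spread between them.

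Of 45101 probe sets, 64 controls were left out. The platform annotation gave 1 gene for 34945 of the others (34741 matched to a current RefSeq gene record), several for 932 and none for 9160. Groups were compared with limma 3.58.1 in R 4.3.3 (two-sided, Benjamini-Hochberg over 45037 probe sets), E1 on 8 arrays, E2 on 6, and the interaction and stage contrasts on 14. The script was tested on simulated data. The authors' own comparison used a one-tailed t-test, which was run as an alternative. In E1, same-numbered EPO and no-EPO arrays deviated together (correlations 0.195, 0.187, 0.173 and 0.152), so the numbers may pair them. Nothing in the labels says so, and EPO replicate 3 correlated best with a no-EPO array of another number (0.203). The main fits were unpaired, and the replicate block was run as an alternative.

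Named were all 17 member probe sets, list genes that passed in an EPO comparison, up to 4 per list in the stage comparison without EPO, and the 3 genes most like each called member. Lyl1, Klf10 and Crebbp were also given for their interactions. Further probe sets of Cdkn1a, Erbin, Gata2 and Smad2, and the EPO changes of Bambi and Smad3, were named after their values were seen. The members and lists were chosen with earlier results of these data known. List counts with arrays left out were added after seeing the data. Ligands Gdf1, Gdf6, Gdf7, Gdf15, Mstn and Bmp3 and the latency gene Lrrc32 had no probe set of their own here, and some other list genes are not reported here. Promoter windows came from RefSeq.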

Additional observations from a re-analysis of the deposited data

Results flagged for a closer look

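In 9 of the 34 sets of 4 arrays examined (17 probe sets in 2 E1 groups), a single array stood apart from the other 3 by more than Dixon's 95% limit for the share of the group's range taken by its gap. Independent normal values would pass this limit in about 1 in 20 sets. The sets here share the same arrays, and in several most values lay close to 0, so the count cannot be set against that rate. For Smad7 1423389_at the gap was 0.968 of the range in E1 cells with EPO (replicate 3, 0.51) and 0.973 in E1 cells without EPO (replicate 4, 0.89). For Skil 1452214_at it was 0.862 with EPO (replicate 2, 0.77), and the same array stood apart for Id2 1435176_a_at (0.85, value 0.46) and Id2 1453596_at (0.922, value 0.45). For Inhba, replicate 1 stood apart at 1422053_at with EPO (0.907) and without EPO (0.837), and at 1458291_at with EPO (0.894). For Smad6 it was replicate 1 without EPO (0.888). The Inhba and Smad6 probe sets spanned less than 0.2 on the log2 scale over all arrays, so those gaps are small in size.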

How the results depend on the processing

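In E2, where 5 member probe sets rose with EPO, the count was 1 with the replicate number as a block, 8 among the 22518 probe sets with the largest SD, 3 by the methods' t-test after Benjamini-Hochberg (Gdf3 and Smad7 no longer passed) and 9 by it unadjusted, and 1 to 4 with an array left out. Averaging a gene's probe sets called 5 genes in E2, where the representative probe sets called 3. In E1, where 2 rose, it was 1 with the replicate block and 0 to 2 with an array left out. For the interaction, where none passed, 4 were higher after quantile normalization and 3 higher and 1 lower with array weights, 1 was lower among those 22518 probe sets, 1 gene was higher by gene means, and 0 to 1 were higher and 0 to 1 lower with an array left out. Without EPO, the 1 probe set higher in E2 became 0 when only the 7 arrays compared were fitted, 0 by gene means and 0 to 1 with an array left out, and the 2 lower became 4 after quantile normalization. The counts of the stage comparison with EPO stayed within 1.5 times of 4 and 3. Quantile normalization of all 14 arrays gives stages of unequal spread the same spread by construction (SD over probe sets 0.259 to 0.295 on E2 arrays and 0.633 to 0.736 on E1 arrays). These SDs also depend on the middle that was subtracted from each probe set.

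With the replicate block, E2 kept Skil 1452214_at alone (adjusted p = 0.0493). Same-numbered E2 arrays did not deviate together (correlations -0.0609, -0.0567 and -0.0155), and none correlated best with its own number, so the numbers do not pair them. Over all probe sets the block gave 44 higher and 17 lower in E1, against 362 and 162 without it, and 264 and 153 in E2, against 1146 and 935. Besides the calls named in the report, the block changed Smad7 1443771_x_at, lower in E2 with EPO by -0.34 (adjusted p = 0.0379), and no other member call.

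Of 1325 single values under other settings, 39 turned sign, and none of these passed the threshold in either fit. In 4 of them both values exceeded their SE: the Gdf3 1449288_at interaction was 0.92 after quantile normalization, and with arrays centred on their medians the stage differences of Id3 (with and without EPO) and Bmp4 (with EPO) were 0.01.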
